A study of Homo sapiens with 8 samples.

Results

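Clathrin-coated vesicles carry receptors and their ligands from the plasma membrane into the cell. A vesicle's lattice is built from clathrin triskelia, each made of heavy chains (CLTC) with bound light chains (CLTA or CLTB), and the AP-2 complex joins that lattice to membrane lipid and to sorting signals in receptor tails. AP-2 holds an alpha subunit (AP2A1 or AP2A2), a beta subunit (AP2B1), a medium subunit (AP2M1) and a small subunit (AP2S1), while PICALM helps to bend the membrane and the GTPase DNM2 cuts the finished vesicle free. These 10 genes were taken by symbol from the 58206 genes of the count table, and each of the 10 was among the 14289 genes abundant enough to be tested.

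RNA was sequenced from Alexander1, an established human hepatocellular carcinoma line in which, per the labels, the Wnt inhibitor Axin1 has lost its GSK3-binding part and Wnt signalling is always on. The 4 parental libraries (labelled wt, Axin1 -) were compared with 4 libraries labelled Axin1 +, from a derivative given Axin1 by retrovirus and selected as clones with hygromycin B. The number of clones is not stated, so a difference between the labels cannot be told apart from a difference between a selected clone and its parent line. The series title concerns endocytosis of focal adhesions and integrin beta-1, and the question addressed here is whether the mRNAs of the clathrin and AP-2 machinery differed between the lines.

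Parental libraries held between 11232951 and 15263761 counts and restored-labelled ones between 12372436 and 26400782, so depth tended to be greater in the restored-labelled group. AXIN1 itself averaged 52.4 CPM in parental libraries (SD 3.49, n = 4) and 45.4 CPM in restored-labelled ones (SD 5.13, n = 4; log2 fold change -0.21, SE 0.12, edgeR adjusted p = 0.267), so every direction below rests on the labels. CPM are counts relative to the scaled library total. AXIN1 values ranged from 47.4 to 55.3 CPM in the parental libraries and were 47.6, 48.0, 48.2 and 37.7 CPM in restored-labelled replicates 1 to 4, so the groups overlapped. On the principal components of all tested genes, parental replicate 1 lay at 61.5 on the second, against -30.3 to 25.0 for the other libraries, and restored-labelled replicate 1 lay at 22.2 on the first, against 48.7 to 56.8 for the other restored-labelled libraries. Of 9 liver and epithelial markers, 2 were called higher, 1 lower and 6 neither. FGB, a fibrinogen chain, went from a mean of 768 to one of 3170 CPM, TTR from 3.63 to 12.6 CPM and SERPINA1 from 16100 to 10400 CPM (n = 4 each; edgeR adjusted p = 6.39e-05, 0.0259 and 0.0164), and the calls of TTR and SERPINA1 were lost in 6 and 5 of 17 alternative analyses. The keratins KRT8 (2490 and 2330 CPM) and KRT18 (1940 and 1820 CPM) did not pass the test. AFP had means of 360 and 164 CPM (log2 -1.14, edgeR adjusted p = 0.0538) and APOA1 of 578 and 297 CPM (log2 -0.96, edgeR adjusted p = 0.078). Neither passed the test, but AFP and APOA1 each passed, lower, in 7 of 17 alternative analyses. APOB (3690 and 3260 CPM) did not pass (edgeR adjusted p = 0.521). Albumin (ALB) stood at 13.8 CPM in restored-labelled replicate 1 and between 445 and 681 CPM in the other restored-labelled libraries, and it did not pass the test (log2 1.51, edgeR adjusted p = 0.211), though it did without that library (log2 1.91, edgeR adjusted p = 0.00865) and with low-count genes kept (log2 1.53, edgeR adjusted p = 0.00497). Markers of other cell types, 10 genes, summed to between 23.6 and 29.7 CPM in the parental and between 66.4 and 83.1 CPM in the restored-labelled libraries. The neuronal SNAP25 made up most of the parental sum, at 17.1 and 20.1 CPM in the 2 groups (edgeR adjusted p = 0.458). PECAM1, an adhesion molecule of endothelium and blood cells, rose from 5.18 CPM (SD 0.951) to 48.2 CPM (SD 10.3, n = 4 each; edgeR adjusted p = 8.45e-06), while PDGFRB, a receptor of mural cells and fibroblasts, fell from 1.69 to 0.221 CPM (log2 -2.87, edgeR adjusted p = 0.00454; -3.53 without restored-labelled replicate 1). SYT1 and COL1A1 did not pass the test, with at most 86 and 109 counts in a library, and CD68, VWF, PTPRC, DCN and CD3E, with at most 11, 6, 2, 1 and 0 counts, were not tested. The part of these markers in the results below was not tested.

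Sequences are shown for CLTC, the member with the largest fold difference, and for the 2 alternative alpha subunit genes, whose values lay in opposite directions. Each is the stretch of 250 bases before the transcription start that RefSeq lists (GRCh38.p14), on the gene's own strand, which is the plus strand for these 3 genes. The CLTC window is chr17:59619645-59619894, that of AP2A1 is chr19:49766751-49767000 and that of AP2A2 is chr11:925620-925869. The gene models used below start elsewhere, at 59619689 for CLTC, 49766968 for AP2A1 and 924894 for AP2A2. The AP2A2 window thus lies wholly inside its gene model, and those of CLTC and AP2A1 lie partly inside theirs. Capitals mark the letters of the CCAAT box (CCAAT) and of the SP1 box (GGGCGG) on either strand.
CLTC: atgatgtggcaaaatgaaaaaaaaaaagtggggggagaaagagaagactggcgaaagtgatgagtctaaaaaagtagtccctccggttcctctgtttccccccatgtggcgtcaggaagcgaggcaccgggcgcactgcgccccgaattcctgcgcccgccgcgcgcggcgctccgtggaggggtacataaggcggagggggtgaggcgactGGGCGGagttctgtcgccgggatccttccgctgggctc
AP2A1: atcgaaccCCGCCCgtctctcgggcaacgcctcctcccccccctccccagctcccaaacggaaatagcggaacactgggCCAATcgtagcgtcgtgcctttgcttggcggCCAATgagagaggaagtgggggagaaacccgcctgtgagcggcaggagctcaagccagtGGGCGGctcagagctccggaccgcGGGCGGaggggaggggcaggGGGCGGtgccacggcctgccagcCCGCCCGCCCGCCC
AP2A2: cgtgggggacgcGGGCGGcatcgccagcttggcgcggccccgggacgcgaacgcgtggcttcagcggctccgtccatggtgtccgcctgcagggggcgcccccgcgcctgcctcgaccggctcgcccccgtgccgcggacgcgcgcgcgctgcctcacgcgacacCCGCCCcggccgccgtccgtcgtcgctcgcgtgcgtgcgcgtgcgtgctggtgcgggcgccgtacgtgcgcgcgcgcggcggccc
The AP2A1 window held 2 CCAAT boxes and 7 SP1 boxes, some of which overlap each other. That of AP2A2 held 2 SP1 boxes and that of CLTC held 1, with 0 CCAAT boxes in either. Their GC contents were 60.8% for CLTC, 70.8% for AP2A1 and 81.6% for AP2A2. Over the 35116 listed promoters, 32.0% held a CCAAT box and 42.6% an SP1 box in a window of this length. The core letters CTTTGAT bound by TCF and LEF factors occurred on either strand in 0 of the 13 windows listed for the 10 genes, against 2.26% of promoters. The E-box CACGTG occurred in 1 of them, a PICALM window, against 6.34%. These matches describe letters in a window and not sites in use.

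In edgeR's quasi-likelihood test, with p-values adjusted over the genes tested and a threshold of 0.05, 4 of the 10 genes were higher in the restored-labelled libraries and 0 were lower. Among the genes tested, 10.4% were called higher and 8.77% lower, and among those with a mean of at least 100 CPM the shares were 9.06% and 10.8%. At an unadjusted p under 0.05, 5 of the 10 were higher and 2 lower (AP2A2 and AP2M1), beside 17.1% higher and 16.4% lower over the genes tested. After adjustment 1 was lower by the DESeq2 Wald test and 0 by limma-voom. The genes that rose were CLTC, CLTA, AP2A1 and AP2B1, which together cover the heavy chain, a light chain and 2 AP-2 subunits. The values of the groups did not overlap for those 4, nor for AP2A2, AP2M1 and DNM2, which lay lower in the restored-labelled libraries without passing the test. Non-overlap upward was seen in 12.7% of the genes tested and downward in 11.2%. The median log2 fold change of the 10 genes was 0.32 (range -0.29 to 1.03), beside 0.00 over the genes tested. Summed over the 10 genes, their level was between 1650 and 1740 CPM in parental and between 2000 and 2200 CPM in restored-labelled libraries. CLTC alone averaged 266 and 545 CPM in these groups. The log2 fold change was positive for 6 of the 10 genes and negative for 4. In bulk RNA, a change in every cell cannot be told apart from a change in the share of cells that express a gene.

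**Figure D1:**
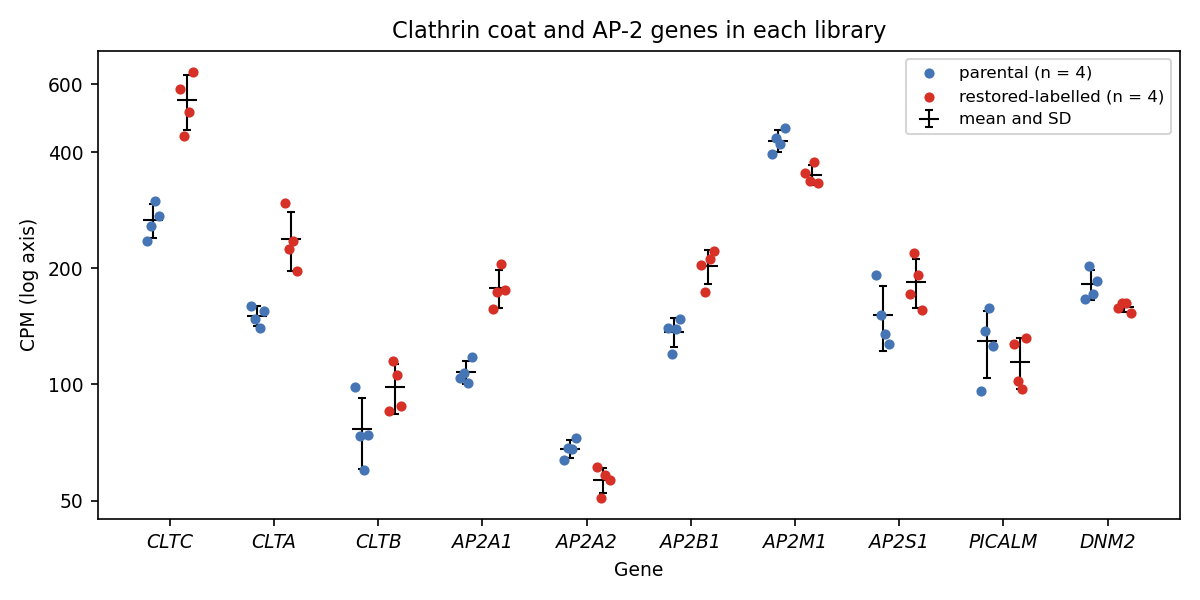
CPM (log axis) of the 10 clathrin and AP-2 genes in each of the 4 parental (blue) and 4 restored-labelled (red) libraries, with the mean and SD of each group in black. CLTC, CLTA, AP2A1 and AP2B1 lie higher in red with no overlap, AP2A2, AP2M1 and DNM2 lie lower with no overlap, and CLTB, AP2S1 and PICALM overlap.

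The clathrin heavy chain was examined first, since it forms the legs of the triskelion. CLTC (ENSG00000141367, chromosome 17, 59619689 to 59696956, plus strand) stood at 236, 258, 299 and 273 CPM in parental replicates 1 to 4 and at 585, 442, 508 and 646 CPM in the 4 restored-labelled libraries, in replicate order. The lowest restored-labelled library was thus above the highest parental one, on between 2650 and 16538 counts per library. The fold difference was 2.05 (log2 1.03, SE 0.15, 95% confidence interval 0.71 to 1.36, edgeR adjusted p = 0.00119), and it passed the threshold in each of the 17 alternative analyses, with log2 values from 0.94 to 1.12. The paralog CLTCL1, a second clathrin heavy chain gene known from muscle, moved the other way, from 18.9 CPM ± 6.89 to 10.1 CPM ± 2.10 (SD, n = 4 each; log2 fold change -0.91, SE 0.26, edgeR adjusted p = 0.0329). Its groups overlapped, by parental replicate 3 at 12.9 CPM and restored-labelled replicate 1 at 13.0 CPM. The CLTCL1 call was lost in 8 of 17 alternative analyses, among them that without parental replicate 4 (log2 -0.69, edgeR adjusted p = 0.087) and that without restored-labelled replicate 4 (-0.81, edgeR adjusted p = 0.104). Per kilobase of exon, CLTC made up 92.3% ± 2.58 of the 2 heavy chain genes in the parental and 97.8% ± 0.541 (SD, n = 4 each) in the restored-labelled libraries. The longest run shared by the coding sequences of CLTC and CLTCL1 is 20 bases, agtaaaatgaaggctcatac, so a read of 50 bases within either coding sequence tells the genes apart.

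The light chains, which regulate assembly of the lattice, are encoded by 2 genes. CLTA (ENSG00000122705, chromosome 9, 36190856 to 36304781, plus strand) stood at 160, 148, 140 and 155 CPM in the parental libraries and at 296, 225, 235 and 197 CPM in the restored-labelled ones. Every restored-labelled value was higher, with replicate 1 the highest. The fold difference was 1.58 (log2 0.66, SE 0.14, 95% confidence interval 0.36 to 0.97, edgeR adjusted p = 0.0088). Without restored-labelled replicate 1 the log2 value was 0.54 (edgeR adjusted p = 0.0115). CLTB (ENSG00000175416, chromosome 5, 176392455 to 176416569, minus strand) stood at 98.3, 73.7, 59.9 and 73.9 CPM against 85.1, 115, 106 and 87.8 CPM. Only parental replicate 1 overlapped the restored-labelled values of CLTB. Its log2 difference of 0.36 (SE 0.16, 95% confidence interval 0.00 to 0.72) did not pass the test (edgeR adjusted p = 0.147). Without parental replicate 1 it did (log2 0.50, edgeR adjusted p = 0.0253), as it did with libraries scaled by total counts only (log2 0.45, edgeR adjusted p = 0.0498), a scaling that moved the median of the genes tested to 0.09.

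Whether the light chains changed relative to each other was tested on the log2 ratio of CLTA to CLTB in each library. That ratio was 1.00 ± 0.22 in the parental and 1.27 ± 0.36 (SD, n = 4 each) in the restored-labelled libraries. The difference of 0.27 was smaller than the spread of the restored-labelled libraries (exact two-sided permutation test over 70 labelings, p = 0.314, also 0.314 adjusted over the 4 ratios compared). Restored-labelled replicate 1 stood highest, at 1.80, and the other restored-labelled libraries, between 0.97 and 1.17, lay within the parental range of 0.70 to 1.22. Without that library the difference was 0.10, and without parental replicate 1 it was 0.17. The log2 ratio of CLTC to the summed light chains was 0.23 ± 0.29 and 0.69 ± 0.34 (SD, n = 4 each), a difference of 0.46 with overlapping groups (exact permutation p = 0.0857, adjusted 0.114), which was 0.29 without restored-labelled replicate 4. A larger rise of the heavy chain than of the light chains was therefore not shown. The coding sequences of CLTA and CLTB share no run longer than 14 bases.

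The alpha subunits, which bind membrane phosphoinositides and carry the appendage that recruits accessory proteins, are encoded by 2 genes. AP2A1 (ENSG00000196961, chromosome 19, 49766968 to 49807113, plus strand) stood at 104, 107, 101 and 118 CPM in the parental and at 157, 174, 205 and 176 CPM in the restored-labelled libraries. The groups were separated, and the fold difference was 1.66 (log2 0.73, SE 0.12, 95% confidence interval 0.46 to 0.99, edgeR adjusted p = 0.00252). AP2A2 (ENSG00000183020, chromosome 11, 924894 to 1012245, plus strand) stood at 63.6, 68.3, 68.1 and 72.7 CPM against 61.0, 50.9, 58.2 and 56.4 CPM. Each restored-labelled value of AP2A2 was below each parental one, yet the log2 difference of -0.27 (SE 0.11, 95% confidence interval -0.51 to -0.03) did not pass the test (edgeR adjusted p = 0.113). Without the first replicate of both groups it did (log2 -0.34, edgeR adjusted p = 0.0466).

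The log2 ratio of AP2A1 to AP2A2 was 0.70, 0.64, 0.57 and 0.70 in the parental libraries and 1.36, 1.77, 1.82 and 1.64 in the restored-labelled ones. The difference of 1.00 was several times the SD of either group (0.06 and 0.21), with no overlap. By exact permutation of the labels (two-sided) p was 0.0286, which is the minimum for groups of this size. It was 0.0571 after adjustment over the 4 ratios, which misses the threshold of 0.05. With that minimum, a ratio could pass after adjustment only if most of the 4 ratios reached it, so the miss does not measure this difference. Per kilobase of exon, AP2A1 held 63.4% ± 1.01 of the alpha subunit level in the parental and 77.5% ± 2.55 (SD, n = 4 each) in the restored-labelled libraries. These coding sequences share a run of 53 bases, the longest of the 6 paralog pairs compared, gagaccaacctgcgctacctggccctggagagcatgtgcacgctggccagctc. Of all 50-base words in the coding sequence, 0.208% of those of AP2A1 and 0.217% of those of AP2A2 occur in the other gene.

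**Figure D2:**
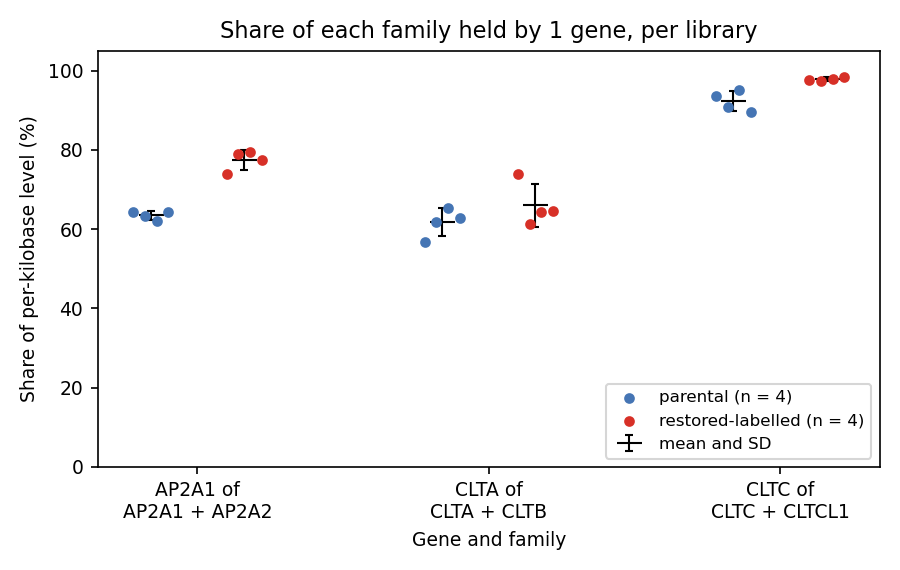
Share of the summed per-kilobase level (percent) held by AP2A1 among the 2 alpha subunit genes, CLTA among the 2 light chain genes and CLTC among the 2 heavy chain genes, for each parental (blue) and restored-labelled (red) library, with mean and SD in black. The AP2A1 share runs from 62.0% to 64.2% in blue and from 73.9% to 79.5% in red, whereas the CLTA shares overlap.

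The calls of the other AP-2 subunits differed, and whether their changes differed from each other was not tested. AP2B1 (ENSG00000006125, chromosome 17, 35578046 to 35726409, plus strand), the beta subunit that binds clathrin directly, stood at 140, 120, 139 and 148 CPM in the parental and at 204, 174, 212 and 222 CPM in the restored-labelled libraries. It rose without overlap, 1.48-fold (log2 0.57, SE 0.12, 95% confidence interval 0.30 to 0.84, edgeR adjusted p = 0.0101). AP2M1 (ENSG00000161203, chromosome 3, 184174689 to 184184091, plus strand), the medium subunit that reads tyrosine-based sorting signals, stood at 395, 436, 420 and 462 CPM against 353, 337, 377 and 333 CPM. Its values were lower in each restored-labelled library than in any parental one. The log2 difference of -0.29 (SE 0.11, 95% confidence interval -0.54 to -0.04) did not pass edgeR's test (adjusted p = 0.101), but it passed the DESeq2 Wald test (log2 -0.30, adjusted p = 0.0166). AP2S1 (ENSG00000042753, chromosome 19, 46838136 to 46850992, minus strand), the small subunit, which takes part in binding dileucine signals, stood at 192, 151, 135 and 127 CPM against 172, 219, 192 and 156 CPM. Its groups overlapped, parental replicate 1 being at the level of the middle restored-labelled libraries (log2 0.28, SE 0.16, 95% confidence interval -0.06 to 0.63, edgeR adjusted p = 0.234). Without parental replicate 1 AP2S1 passed the threshold (log2 0.42, edgeR adjusted p = 0.0495), and the count of genes that rose became 6.

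The level of the heavy chain relative to its adaptor was compared as log2 CPM of CLTC minus the median of the 5 AP-2 subunit genes. This was 0.75, 1.10, 1.14 and 1.10 in the parental and 1.77, 1.34, 1.31 and 1.87 in the restored-labelled libraries. The groups did not overlap, and the means differed by 0.55 (exact two-sided permutation p = 0.0286, adjusted 0.0571 over the 4 ratios).

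The accessory members showed no change past the threshold. PICALM (ENSG00000073921, chromosome 11, 85957684 to 86069882, minus strand), which binds clathrin and helps to sort SNARE proteins, stood at 96.3, 138, 158 and 126 CPM in the parental and at 127, 102, 97.2 and 132 CPM in the restored-labelled libraries. The 4 restored-labelled values of PICALM fell within the parental range (log2 -0.18, SE 0.17, 95% confidence interval -0.55 to 0.19, edgeR adjusted p = 0.487). DNM2 (ENSG00000079805, chromosome 19, 10718079 to 10833488, plus strand) stood at 167, 203, 172 and 186 CPM against 158, 163, 163 and 153 CPM. Its groups were narrowly separated, with a log2 difference of -0.19 (SE 0.11, 95% confidence interval -0.43 to 0.05, edgeR adjusted p = 0.249). SNAP91, the neuronal paralog of PICALM, held at most 2 counts in any library and DNM3 at most 10, and neither was tested. DNM1, the dynamin best known from synapses, was present at 21.8 CPM ± 4.50 and 25.6 CPM ± 6.14 (SD, n = 4 each; log2 0.23, SE 0.20, edgeR adjusted p = 0.454). Per kilobase of exon, DNM2 held 86.9% ± 2.86 and 83.3% ± 3.27 (SD, n = 4 each) of the level of the 3 dynamin genes.

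Levels of different genes were compared per kilobase of exon in the gene model, on the CPM scale. In the parental libraries AP2M1 (90.0 CPM per kilobase ± 5.95) and AP2S1 (88.9 ± 16.9) were highest, and their ranges overlapped. CLTA (59.8 ± 3.49), CLTB (37.5 ± 7.83) and CLTC (22.5 ± 2.23) followed, each separated from the gene above it. PICALM (22.2 ± 4.43) and AP2B1 (18.0 ± 1.57) each overlapped the gene above them, and below AP2B1 came DNM2 (13.5 ± 1.21), overlapping AP2A1 (12.3 ± 0.869; SD, n = 4 for each value). AP2A2 was lowest, at 7.07 ± 0.385. In the restored-labelled libraries AP2S1 (108, from 91.3 to 128), CLTA (94.7 ± 16.5) and AP2M1 (73.6 ± 4.15) led, with AP2S1 overlapping CLTA and CLTA overlapping AP2M1. CLTB (48.2 ± 7.01) and CLTC (46.1 ± 7.52) now overlapped each other, AP2B1 stood at 26.8 ± 2.73, AP2A1 at 20.4 ± 2.30, PICALM at 19.6 ± 3.04 and DNM2 at 11.9 ± 0.365, with AP2A2 again lowest at 5.87 ± 0.444 (SD, n = 4 for each value). With coding length in place of exon length, an alternative chosen after seeing the data, AP2S1 had the highest mean in both groups, though its parental range (241 to 363 CPM per coding kilobase) overlapped that of AP2M1 (246 to 288). In the parental libraries CLTC moved from rank 5 to rank 7 and DNM2 from rank 8 to rank 6.

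Each gene's change was set beside that of its chromosomal neighbours, the 20 tested genes on either side. CLTA lies in a stretch of chromosome 9 in which 35 of the 40 neighbours were called higher and 0 lower, with a median log2 fold change of 1.05, above that of CLTA (0.66). Around CLTC 14 of 40 neighbours were higher and 0 lower (median 0.55, gene minus median 0.48). Around AP2A1 8 were higher and 0 lower (median 0.23, gene minus median 0.50). Around AP2B1 15 were higher and 1 lower (median 0.37, gene minus median 0.20). Around CLTB 14 neighbours were higher and 3 lower, and its difference of 0.36 was close to their median of 0.34. The median was 0.27 around AP2S1, -0.20 around AP2A2, -0.11 around PICALM, -0.02 around AP2M1 and 0.13 around DNM2. Gene minus median was -0.39 for CLTA, -0.32 for DNM2 and -0.27 for AP2M1. It lay between -0.07 and 0.02 for CLTB, AP2A2, AP2S1 and PICALM. The part of these regional shifts in each gene's difference was not tested.

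**Figure D3:**
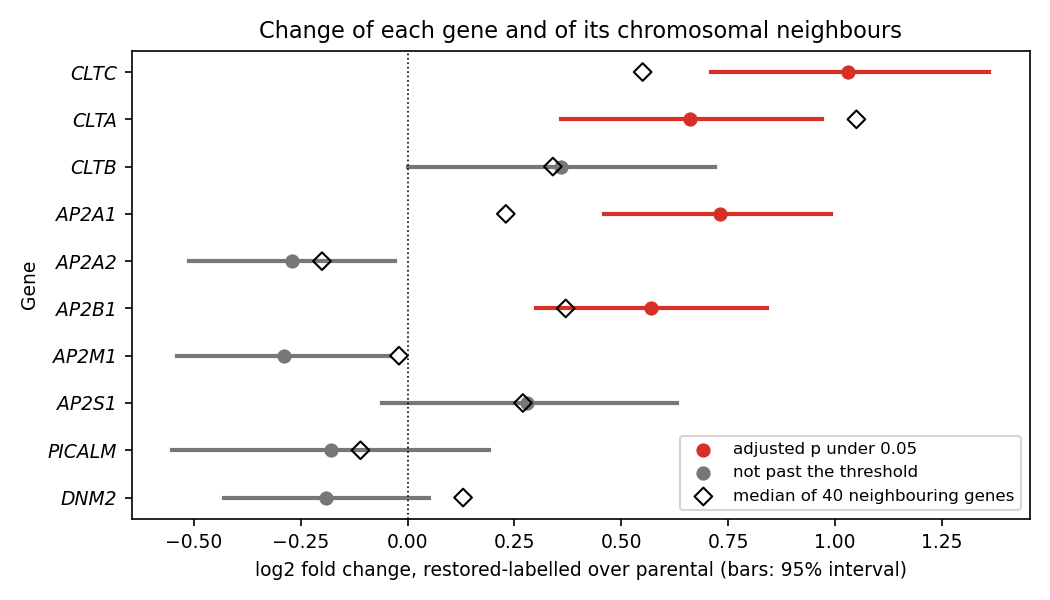
Log2 fold change (restored-labelled over parental) of each of the 10 genes with its 95% confidence interval, red where the edgeR adjusted p is under 0.05 and grey otherwise, with open diamonds for the median of its 40 neighbouring genes. The diamond lies above CLTA, at 1.05 against 0.66, and below CLTC, AP2A1 and AP2B1.

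Reads could also be shared with overlapping genes, since the use of strand in counting is not given in the sources used here. Exons of CLTC overlap those of PTRH2 on the opposite strand over 244 bases (2.06% of CLTC exon length), and PTRH2 was higher too, with means of 39.8 and 75.0 CPM (n = 4 each; log2 0.92, SE 0.21, edgeR adjusted p = 0.0123). DNM2 shares 776 bases (5.77%) with TMED1, which was likewise higher (log2 0.68, edgeR adjusted p = 0.0134; 0.0503 without parental replicate 2) while DNM2 was not. AP2A1 shares 245 bases (2.80%) with FUZ, whose own difference did not pass the test (edgeR adjusted p = 0.144). Of the 50-base words in the coding sequence of AP2B1, 8.84% (248) also occur in transcripts of other genes, 222 of them in AL359263.1. The pseudogene AP2B1P1 on chromosome X had 0 counts in every library. How reads that match more than 1 place were counted is not given in the sources used here, so these 0 counts cannot show whether reads were shared. For CLTA 6.84% of the words occur in transcripts of other genes.

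By Pearson correlation of log2 CPM over the 8 libraries, the genes most like CLTC among 9366 with a mean of at least 10 CPM were EIF2S3 (r = 0.998), GNE (0.991), CCDC47 (0.991), C5orf15 (0.988) and TBC1D9 (0.988). They rose as well, with log2 fold changes of 0.75, 1.10, 0.51, 1.10 and 1.10 and edgeR adjusted p from 0.00138 to 0.0152, the call of CCDC47 being lost in 3 of 17 alternative analyses. In the same order these genes lie on chromosomes X, 9, 17, 5 and 4, while CLTC lies on 17, CLTA on 9 and CLTB on 5. The part of regional shifts in this likeness was not tested. Every gene shares these libraries, which fall into 2 groups, and the values are a description with no test. Within the coat, AP2B1 (r = 0.948), AP2A1 (0.883) and CLTA (0.827) followed CLTC, CLTB (0.405) and AP2S1 (0.322) did so less, and AP2M1 (-0.827), DNM2 (-0.762) and AP2A2 (-0.702) ran opposite to it.

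The wider pathway, together with related adaptor complexes, was described through 5 lists of 100 genes in all, of which 92 were tested, 10 rose and 13 fell past the threshold in the same edgeR test. That is 25.0% of the tested list genes, beside 19.2% over the whole table. The median of the list genes was -0.05 on the log2 scale. Chromosomal neighbours were not examined for the list genes, and the part of regional shifts in their differences was not tested. Among the 24 tested genes for vesicle initiation and cargo adaptors, 2 were higher and 3 lower (median -0.02). DAB2, an adaptor for integrins and other cargo receptors, stood at 31.5, 19.0, 24.3 and 14.7 CPM in the parental and at 41.4, 67.6, 64.1 and 68.6 CPM in the restored-labelled libraries. It rose without overlap, from a mean of 22.4 to one of 60.4 CPM (log2 1.43, SE 0.24, edgeR adjusted p = 0.00269). AAK1, the kinase that phosphorylates the AP-2 medium subunit, fell from a mean of 71.4 CPM (SD 11.3) to 45.1 CPM (SD 4.37, n = 4 each; log2 -0.66, SE 0.14, edgeR adjusted p = 0.00861). The scaffold ITSN2 (log2 -0.61, edgeR adjusted p = 0.0292) and STON2 (-0.65, edgeR adjusted p = 0.0452) fell and CLINT1 rose (0.62, edgeR adjusted p = 0.0402). The call was lost in 4 of 17 alternative analyses for ITSN2, 12 for STON2 and 10 for CLINT1.

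Of the 21 tested genes for membrane bending, scission and uncoating, 2 were higher and 3 lower (median -0.17). GAK, which brings the chaperone HSPA8 to coated vesicles for uncoating, fell from 186, 160, 143 and 176 CPM to 118, 124, 120 and 110 CPM, with no overlap (log2 -0.49, SE 0.12, edgeR adjusted p = 0.0158). That call was lost without restored-labelled replicate 4 (edgeR adjusted p = 0.0563) and when replicate number entered the fit as a block (adjusted p = 0.0506 in edgeR). HSPA8 itself varied widely, at 821 CPM ± 329 and 983 CPM ± 326 (SD, n = 4 each; log2 0.26, edgeR adjusted p = 0.598). The membrane-curving protein PACSIN3 (log2 -0.81, SE 0.15, edgeR adjusted p = 0.00465) and FNBP1 (-0.59, SE 0.15, edgeR adjusted p = 0.0211) fell. PIP5K1C, a kinase that makes the phosphoinositide bound by AP-2, rose (0.61, SE 0.16, edgeR adjusted p = 0.0258), as did SNX18 (1.01, SE 0.31, edgeR adjusted p = 0.0442), and the groups of both overlapped. The calls of FNBP1, PIP5K1C and SNX18 were lost in 8, 8 and 7 of 17 alternative analyses.

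In the other adaptor complexes, which sort cargo at the Golgi and endosomes, 3 of 26 tested genes were higher and 3 lower (median 0.13). AP3B1, the widely expressed AP-3 beta subunit, rose from 55.8 CPM ± 4.30 to 89.6 CPM ± 10.8, and AP3B2, its neuronal counterpart, from 2.18 CPM ± 0.373 to 6.32 CPM ± 0.933 (SD, n = 4 each; log2 0.68 and 1.54, edgeR adjusted p = 0.004 and 0.00144). AP1S2, a small AP-1 subunit, rose too (log2 0.85, edgeR adjusted p = 0.0261). AP1M2, the epithelial AP-1 medium subunit, fell from a mean of 55.7 CPM (SD 5.08) to 33.9 CPM (SD 5.27, n = 4 each; log2 -0.72, edgeR adjusted p = 0.00712), as did AP5Z1 (log2 -0.82) and AP4B1 (-0.70), with edgeR adjusted p of 0.0116 and 0.0184. The calls of AP1S2 and AP4B1 were lost in 5 and 2 of 17 alternative analyses. AP1B1, the AP-1 relative of AP2B1, did not pass the test (log2 0.07, SE 0.15, edgeR adjusted p = 0.757), and it shares no coding run longer than 23 bases with AP2B1. Whether AP-2 differed from the other complexes was not tested.

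Among 19 receptors that clathrin carries, 3 were higher and 3 lower (median -0.30). The iron receptor TFRC, the standard cargo of this route, varied widely in both groups and did not pass the test, at 602 CPM ± 185 and 595 CPM ± 143 (SD, n = 4 each; log2 -0.02, SE 0.25, edgeR adjusted p = 0.971). IGF1R fell from a mean of 82.0 CPM (SD 5.30) to 42.5 CPM (SD 11.1, n = 4 each; log2 -0.95, SE 0.17, edgeR adjusted p = 0.00386). The Wnt co-receptor LRP5 fell as well (log2 -0.64, SE 0.14, edgeR adjusted p = 0.0104), while LRP6 (-0.31, edgeR adjusted p = 0.111) did not pass. LRP8 fell most, by 1.77 on the log2 scale (SE 0.43, edgeR adjusted p = 0.0168), and by 2.48 without restored-labelled replicate 1 (edgeR adjusted p = 0.000243). Its level was 36.3 CPM in restored-labelled replicate 1 and 10.4 CPM in each of the others. Without restored-labelled replicate 3 or 4 the LRP8 call was lost (edgeR adjusted p = 0.0554 and 0.058). ITGB1, LRP1 and the Wnt receptor FZD7 rose, by 1.11, 0.58 and 0.99 (edgeR adjusted p = 0.0178, 0.0206 and 0.0271), calls that were lost in 2, 5 and 7 of 17 alternative analyses.

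**Figure D4:**
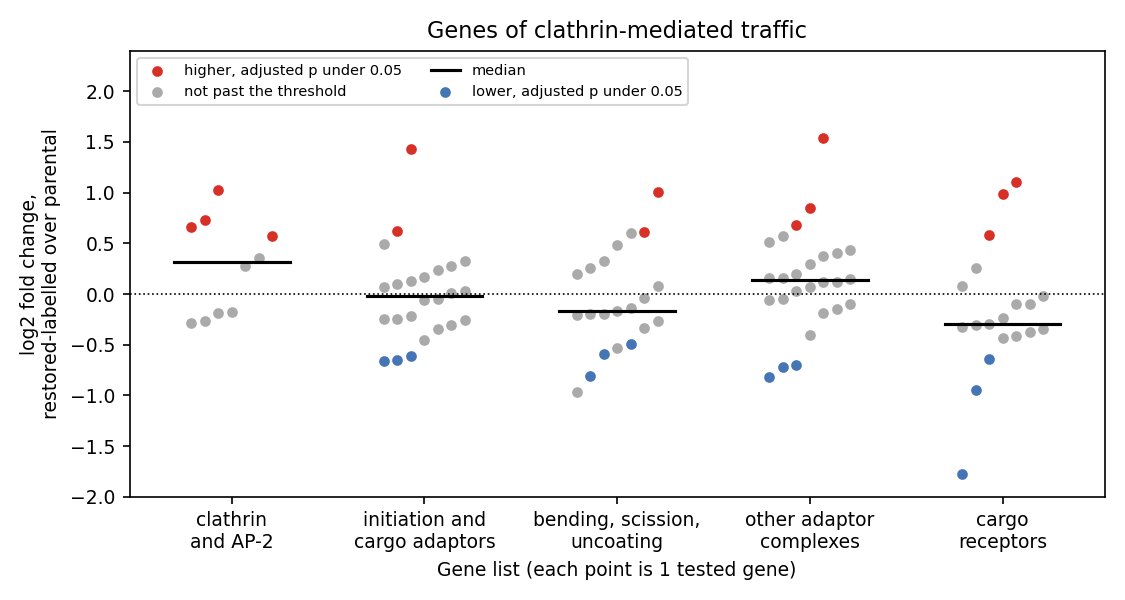
Log2 fold change (restored-labelled over parental) of each tested gene in the clathrin and AP-2 set and in 4 lists of vesicle traffic genes, coloured by the edgeR call, with the list median as a black line. The list of other adaptor complexes is not limited to adaptors that work with clathrin. The median is 0.32 for clathrin and AP-2 and between -0.30 and 0.13 for the other lists, each of which holds genes called in both directions.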

How the data were processed

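RNA from 8 samples was analysed, grouped by their titles. The authors deposited raw counts per gene, as whole numbers with differing totals show. Per the submitters' processing notes, bcl2fastq, fastp 0.23.1, STAR 2.7.4 and the build GRCh38 were used; the counting program, annotation and use of strand are not given in the sources used here. Symbols, coordinates and lengths come from GENCODE release 29 (57943 of 58206 identifiers found) and a symbol table (57495 found), promoters from RefSeq.

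In R 4.3.3, edgeR 4.0.16 was run on the deposited counts with filterByExpr (minimum count 10, minimum total 15), TMM scaling and the two-sided quasi-likelihood test, with Benjamini-Hochberg adjustment over 14289 genes at a threshold of 0.05. The common biological coefficient of variation was 0.227. SEs were derived from the F statistic. Ratios were compared by exact permutation. Because the labels do not say whether libraries came from separate cultures, p-values measure only the spread between these libraries.

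The members and lists were chosen with earlier results of these data known. Named are the members and their paralogs, at most 6 called genes of each list by smallest p, the 5 genes most like CLTC, and AXIN1; genes named as not called, the markers and the overlapping genes were added after their values were seen. Some listed and overlapping genes are not reported here. In simulated counts for this comparison, 194 of the 14076 genes tested were changed. There edgeR recovered 56.3% of 2-fold and 89.4% of 4-fold changes, and 7.41% of its 162 calls were false. In the data 19.2% of genes were called, a far larger share, so these rates need not hold for them. Alternatives were DESeq2 1.42.0 size factors and Wald test, limma 3.58.1 voom, upper-quartile and total-count scaling, no filter, a threshold of 0.01, the replicate number as a block, 0.5 added to each count for ratios, and each library left out. Leaving out the first replicate of both groups was added after seeing the data.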

Additional observations from a re-analysis of the deposited data

Results flagged for a closer look

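In 134 sets of 4 values, those of 4 ratios and 63 genes in each group (the members, AXIN1, the paralogs, the tested markers, and the pathway, overlapping and CLTC-like genes named above), 13 held a library far from the other 3 by a test that flags about 1 set in 20 by chance. AXIN1 was at 37.7 CPM in restored-labelled replicate 4 (others 47.6 to 48.2). In the same library AP3B1 was at 106 CPM (others 83.0 to 85.6), AP1M2 at 26.1 CPM (others 35.7 to 37.2) and AP1S2 at 20.3 CPM (others 11.0 to 12.4). In restored-labelled replicate 1 DAB2 was at 41.4 CPM (others 64.1 to 68.6) and LRP8 at 36.3 CPM (others 10.4), and of the markers FGB was at 2260 CPM (others 3450 to 3500) and COL1A1 at 3.91 CPM (others 0.991 to 1.48). In restored-labelled replicate 2 HSPA8 was at 494 CPM (others 1130 to 1180) and PTRH2 at 97.3 CPM (others 64.7 to 69.4). In parental replicate 1 PTRH2 was at 57.4 CPM (others 32.2 to 36.1), APOB at 2530 CPM (others 3950 to 4150) and the log2 difference between CLTC and the AP-2 median at 0.75 (others 1.10 to 1.14).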

How the results depend on the processing

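CLTC, CLTA and AP2A1 passed the threshold in each of the 17 alternatives, and AP2B1 in each but the threshold of 0.01 (edgeR adjusted p = 0.0101). The count of members higher was 3 at the threshold of 0.01 and between 4 and 6 with 1 library left out. One member became lower with the DESeq2 Wald test (AP2M1) and 1 without the first replicate of both groups (AP2A2), so the count of members lower moved from 0 to 1 in both. The number of genes differing, 2738, was 964 at the threshold of 0.01, 4623 without the first replicate of both groups, and between 1394 (without restored replicate 4) and 3523 (without parental replicate 1) with 1 library left out. Pathway genes higher, 10, were 3 at the threshold of 0.01 and between 3 and 10 with 1 library left out, the lowest counts being those without restored replicates 4 (3) and 3 (4) and parental replicates 4 (4) and 2 (5). Pathway genes lower, 13, were 4 at the threshold of 0.01, 24 without the first replicate of both groups, and between 6 (without restored replicate 4) and 17 with 1 library left out. The cause was not tested. Deviations of same-numbered libraries correlated between -0.0629 and 0.227, and those of libraries with unlike numbers between -0.425 and 0.448. With such a spread these values cannot decide whether the replicate numbers pair the libraries. With the replicate block 2033 genes differed and 4 members were higher, and the CLTCL1 call was lost (edgeR adjusted p = 0.0796); the log2 difference of the AP2A1 to AP2A2 ratio stayed at 1.00, where the block cannot give an exact permutation p below 0.125. The 4 ratios kept their direction in 10 alternatives each; with 1 library left out the differences ran from 0.10 to 0.37 for CLTA over CLTB, 0.29 to 0.57 for CLTC over the light chains, 0.94 to 1.09 for AP2A1 over AP2A2 and 0.45 to 0.64 for CLTC over the AP-2 median. Of the named genes that did not pass the test, these changed sign: TFRC (0.06 with total counts, 0.01 without the filter, 0.00 with limma-voom and with the replicate block, -0.32 without the first replicate of both groups, and between -0.21 and 0.13 with 1 library left out), AP1B1 (between -0.03, without parental replicate 1, and 0.19 with 1 library left out, and -0.04 without the first replicate of both groups), KRT8 (between -0.17 and 0.01) and KRT18 (between -0.20 and 0.01, both positive without restored replicate 4) and SNAP25 (0.08 to 0.33 with 1 library left out, -0.03 without the first replicate of both groups). Without parental replicate 2 PDGFRB was too scarce to be tested.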
